A study of Mus musculus with 6 samples.

Results

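The chemokine ligands Ccl2, Ccl7, Ccl6, Ccl9, Cxcl1, Cxcl5, Cxcl12, Cxcl14, Cxcl16 and Cx3cl1 were followed in lens capsules collected 5 days after cataract surgery and at the time of surgery. The 10 genes were chosen by symbol, each matched 1 Ensembl gene, and they stand among 56940 genes listed in every library. In this mouse model of cataract surgery the lens fiber cells are removed, and the emptied capsule with its lens epithelial cells (LEC) stays behind. The 5 day group (3 libraries) and the 0 h group (3 libraries) each came from wildtype C57BL/6 mice, with 5 capsules pooled per library. The 0 h capsules were taken when the second eye was operated on, 5 days after the first, so the 0 h animals also carried a surgical wound. The sources used here give neither age nor sex, nor whether a 5 day pool and a 0 h pool share mice. RNA came from the whole capsule with every cell on it, so in these bulk samples more cells of a type and more RNA per cell cannot be told apart.

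Chemokines are small secreted proteins that steer leukocytes along concentration gradients through G protein-coupled receptors. They are classed by the spacing of the first cysteines into CC, CXC and CX3C ligands. Ligands of CCR2 (Ccl2, Ccl7), of CCR1 (Ccl6, Ccl9) and of CX3CR1 (Cx3cl1) act mainly on monocytes and macrophages, while the CXCR2 ligands Cxcl1 and Cxcl5 act mainly on neutrophils. Wounded epithelia and the leukocytes that enter a wound are both known sources of chemokines.

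Levels are given in CPM (counts of a gene in relation to all gene counts of its library, scaled to counts per megaread and between libraries). Differences are log2 fold changes, 5 days over 0 h, and SE is the standard error. The libraries held between 6207387 and 8682659 gene counts at 5 days and between 7709815 and 9774343 at 0 h. Log values of 2 libraries correlated at 0.965 to 0.979 inside a group and 0.785 to 0.83 across groups. The labelled cell type was present: the 12 listed lens epithelium markers were all detected in every library. Summed, they stood at 16285 to 30663 CPM at 5 days and 95066 to 112548 CPM at 0 h, mostly the α-crystallin genes Cryaa (11188 CPM at 5 days and 62314 CPM at 0 h on average) and Cryab. Of the 12 markers 9 were called lower and 2 higher by the test described below, where 22.5% and 25.1% of all tested genes were. The marker of lens epithelium that fell most was the matrix gene Npnt, by 4.66 on the log2 scale. The 2 that rose were Pax6 (by 0.28) and Epha2 (by 0.43), and Slc2a1 was not called. Retinal neuron markers were also detected, at 42.9 to 112 CPM summed at 5 days and 554 to 843 CPM at 0 h, and their part in the ligands' levels was not tested.

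All of the 7 ligands that could be tested were higher at 5 days. These were Ccl2, Ccl6, Ccl9, Cx3cl1, Cxcl12, Cxcl14 and Cxcl16, with a median log2 fold change of 2.67 against -0.01 over all 14676 tested genes. Over all tested genes 25.1% were called higher by the same test (edgeR's quasi-likelihood test, Benjamini-Hochberg adjusted p under 0.05). The other 3 ligands, Ccl7, Cxcl1 and Cxcl5, had too few counts for the low-count filter, which asked for about 1.22 CPM in at least 3 libraries. Of the 7 tested ligands 3 (Ccl2, Cx3cl1 and Cxcl14) met that filter in the 0 h libraries alone, and these rose by 2.67, 1.18 and 1.02 on the log2 scale. The other 4 (Ccl6, Ccl9, Cxcl12 and Cxcl16) met it only through the 5 day libraries, so they could hardly have come out lower. The count of 7 and the median are therefore tilted upward and are no support for a rise of the family. For each of the 7 tested ligands every 5 day library lay above every 0 h library, which held for 29.9% of all tested genes (58.1% did not overlap in either direction). Outside the test, Cxcl1 and Cxcl5 had counts at 5 days and none at 0 h, and the groups of Ccl7 overlapped.

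The genes are protein coding and were placed with GENCODE M21 on build GRCm38. On chromosome 11 lie Ccl2 (ENSMUSG00000035385) at chr11:82035571-82037453, Ccl7 (ENSMUSG00000035373) at chr11:82045712-82047525, Ccl6 (ENSMUSG00000018927) at chr11:83587882-83593087, Ccl9 (ENSMUSG00000019122) at chr11:83572919-83578636 and Cxcl16 (ENSMUSG00000018920) at chr11:70453983-70459984. On chromosome 5 lie Cxcl1 (ENSMUSG00000029380) at chr5:90891241-90893115 and Cxcl5 (ENSMUSG00000029371) at chr5:90759360-90761624. The other 3 lie apart, Cxcl12 (ENSMUSG00000061353) at chr6:117168535-117181367, Cxcl14 (ENSMUSG00000021508) at chr13:56288643-56296551 and Cx3cl1 (ENSMUSG00000031778) at chr8:94772009-94782427.

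**Figure D1:**
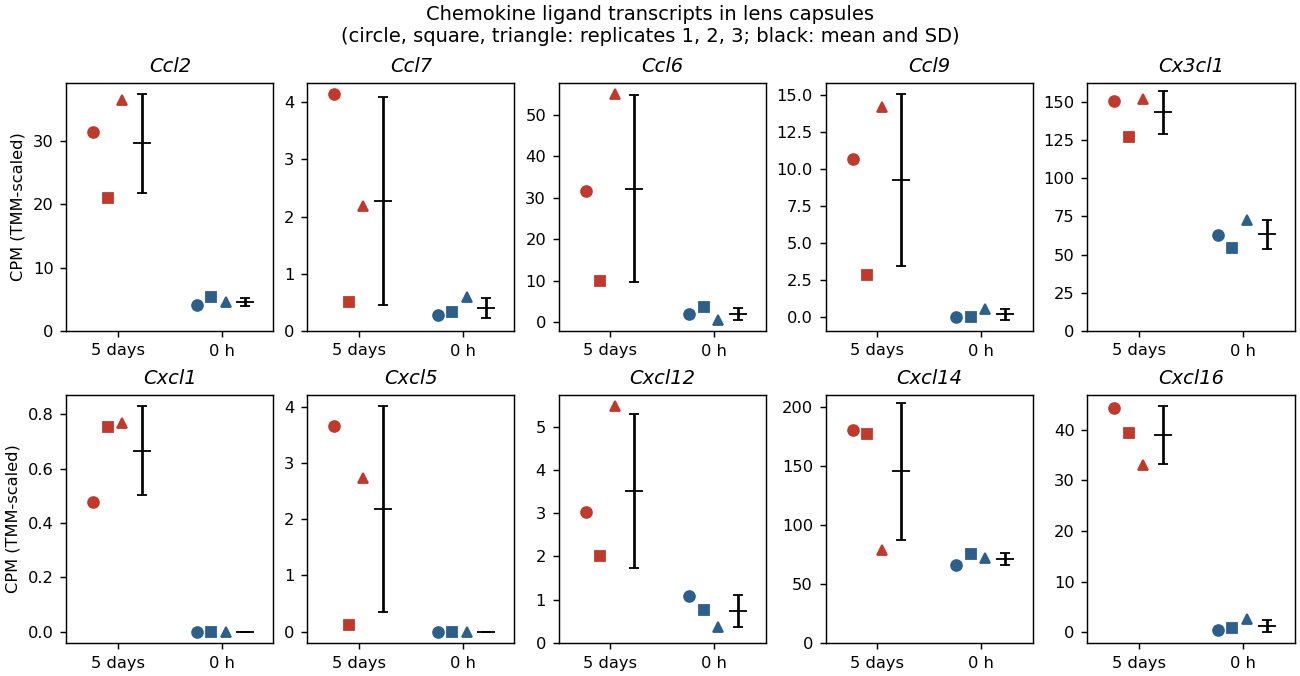
Scaled CPM of each of the 10 chemokine ligands (vertical axis, linear, a separate scale per gene) in the 3 libraries at 5 days (red) and the 3 at 0 h (blue), with mean and SD in black. The groups overlap for none of the genes but Ccl7, and replicate 2 at 5 days (square) is the lowest 5 day library in 7 genes.

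Ccl2, also called MCP-1, is the main ligand that draws CCR2-bearing monocytes out of the blood. It stood at 31.4, 21 and 36.4 CPM in the 5 day libraries (replicates 1 to 3), against 4.04, 5.27 and 4.53 CPM in the 0 h libraries. The lowest 5 day library was far above the highest 0 h library, and the 0 h libraries differed little from each other. The log2 fold change was 2.67 (SE 0.24), a 6.37-fold rise (edgeR's quasi-likelihood test, adjusted p = 2.09e-06). Because its 0 h counts (30, 48 and 38) were well above the filter, this rise does not rest on an empty 0 h group.

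Ccl7, or MCP-3, is a second CCR2 ligand whose gene lies next to Ccl2 on chromosome 11. It had 26, 4 and 20 counts in the 5 day libraries, against 2, 3 and 5 counts in the 0 h libraries. In CPM these were 4.14, 0.502 and 2.19 at 5 days and 0.269, 0.329 and 0.596 at 0 h. Replicate 2 at 5 days fell inside the 0 h range, so the groups overlapped. Over the summed counts, 50 at 5 days and 10 at 0 h, the ratio was 5.33 (95% exact interval 2.67 to 11.8, counting error only). With no low-count filter the log2 fold change of Ccl7 was 2.44 (SE 0.74) and the adjusted p 0.00475 by edgeR's quasi-likelihood test.

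Ccl6 and Ccl9 are CC chemokines that bind CCR1 and are made mostly by myeloid cells in mice. Ccl6 stood at 31.7, 9.8 and 55 CPM in the 5 day libraries, against 2.02, 3.51 and 0.596 CPM in the 0 h libraries. Ccl9 stood at 10.7, 2.89 and 14.2 CPM in the 5 day libraries, and at 0, 0 and 0.596 CPM in the 0 h libraries. Both genes were highest in replicate 3, intermediate in replicate 1 and lowest in replicate 2 at 5 days, and neither overlapped between groups. Ccl6 rose by 3.95 on the log2 scale (SE 0.61, adjusted p = 0.000198 by edgeR's quasi-likelihood test). Ccl9 rose by 5.43 (SE 0.86, adjusted p = 0.000237 by the same test). The 5 counts of Ccl9 at 0 h all came from replicate 3. The ratio of its summed counts was 46.9 (95% exact interval 19.8 to 146, counting error only).

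The sizes of these rises depended on single libraries. Without replicate 2 at 0 h the log2 fold change of Ccl6 was 4.64, and without replicate 3 at 5 days it was 3.29. Without replicate 2 at 0 h that of Ccl9 was 4.81. Without replicate 3 at 0 h Ccl9 had no 0 h counts at all and was at least 51.9-fold higher against a floor of 3 counts over the remaining 0 h libraries. The call itself held in each of these cases. For Ccl9, 3.64% of the 50-base words of its transcripts also occur in other genes' transcripts, so a small part of its reads may be misassigned or dropped. Ccl6 shares none.

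The genes of Ccl6 and Ccl9 lie on the minus strand of chromosome 11, next to each other in the chemokine cluster that also holds Ccl2 and Ccl7. Their upstream stretches are shown so that these neighbouring CCR1 ligand genes can be compared. The order of their libraries at 5 days is not particular to them, since Ccl2, Cxcl12 and Cx3cl1 had it too. They run from 150 bases before the start to the base before it, 5′ to 3′, from RefSeq on build GRCm38.p6. The Ccl6 stretch lies at chr11:83593088-83593237 and the Ccl9 stretch at chr11:83578637-83578786. Capitals mark ACTTCC, the reverse complement of GGAAGT, a short word of the kind bound by ETS factors, which include the myeloid factor PU.1.
Ccl6: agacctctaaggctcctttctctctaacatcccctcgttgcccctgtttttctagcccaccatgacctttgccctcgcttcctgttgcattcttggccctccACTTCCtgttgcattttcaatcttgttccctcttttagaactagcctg
Ccl9: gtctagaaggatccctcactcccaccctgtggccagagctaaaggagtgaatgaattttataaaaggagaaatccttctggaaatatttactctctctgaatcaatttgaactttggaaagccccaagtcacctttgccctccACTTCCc
The word stood 48 to 43 bases before the start in Ccl6 and 7 to 2 bases before it in Ccl9. GGAAGT on either strand was found in 13.6% of 32851 RefSeq stretches of the same length, so a match is common and says nothing of binding. The stretches of Cxcl1, Cxcl12, Cxcl14 and Cx3cl1 did not hold it. Promoter sequences were matched for 6 of the 10 ligands.

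Cx3cl1, or fractalkine, is anchored in the membrane on a mucin-like stalk and holds or draws cells that carry CX3CR1, such as microglia, resident macrophages and patrolling monocytes. It stood at 150.4, 127 and 152 CPM in the 5 day libraries, against 62.9, 54 and 72.8 CPM in the 0 h libraries. The values were tight in both groups and did not overlap. Cx3cl1 rose by 1.18 on the log2 scale (SE 0.12, adjusted p = 8.85e-06 by edgeR's quasi-likelihood test), a 2.26-fold change on a 0 h level that was already high. The proteases that release it from the membrane, Adam10 and Adam17, rose by 0.45 (SE 0.09) and 0.59 (SE 0.12). Adam10 averaged 161 ± 4.07 CPM at 5 days and 118 ± 3.62 CPM at 0 h, and Adam17 averaged 74.7 ± 9.81 CPM at 5 days and 49.7 ± 3.19 CPM at 0 h (SD, n = 3 each).

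The neutrophil-attracting ligands were scarce. Cxcl1, or KC, had 3, 6 and 7 counts in the 5 day libraries and none in any 0 h library. In CPM this was 0.477, 0.753 and 0.766 at 5 days. Against a floor of 3 counts over the 0 h group, Cxcl1 was at least 5.69-fold higher at 5 days. Cxcl5, or LIX, had 23, 1 and 25 counts at 5 days and none at 0 h, which made it at least 17.4-fold higher. Its CPM values of 3.66, 0.126 and 2.74 at 5 days show that replicates 1 and 3 carried nearly all of it, and replicate 2 held a single read. The 0 counts in the 0 h libraries allow a level of up to 0.12 CPM over the group, for counting error only. With no low-count filter, edgeR's quasi-likelihood test called Cxcl1 (adjusted p = 0.014) and Cxcl5 (adjusted p = 4.13e-07) higher. These values rest on few counts.

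The upstream stretch of Cxcl1 is shown because it holds a κB-type word, the kind bound by NF-κB. It lies on the plus strand at chr5:90891095-90891244 of GRCm38.p6 (RefSeq), and capitals mark the word.
Cxcl1: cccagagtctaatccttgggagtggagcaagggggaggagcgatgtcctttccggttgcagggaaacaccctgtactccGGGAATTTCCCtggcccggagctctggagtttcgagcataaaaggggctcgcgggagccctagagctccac
The search was for GGGA, any 2 bases and TTCC, on either strand. It matched both strands here, in overlapping windows 71 to 61 bases before the start. The word was found in 0.788% of the 32851 RefSeq stretches of this length, and in none of the other 5 ligand stretches available. Those were the stretches of Ccl6, Ccl9, Cxcl12, Cxcl14 and Cx3cl1, 5 genes that were called higher. A match says nothing of binding, and a part of NF-κB in the level of Cxcl1 was not tested.

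Cxcl16, a membrane-bound ligand of CXCR6 that also takes up oxidised lipoprotein, stood at 44.4, 39.4 and 33.1 CPM in the 5 day libraries. It stood at 0.404, 0.768 and 2.62 CPM in the 0 h libraries. The 5 day values were close together and the 0 h values were not, since replicate 3 at 0 h held 22 of the 32 counts. Cxcl16 rose by 4.91 on the log2 scale (SE 0.37, adjusted p = 5.1e-07 by edgeR's quasi-likelihood test). Without replicate 3 at 0 h the log2 fold change was 5.97. Of the 50-base words of its transcripts 16.9% also lie in transcripts of Zmynd15, which overlaps it, so reads in the shared part are uncertain. Zmynd15 itself averaged 3.22 ± 0.866 CPM at 5 days and 0.525 ± 0.0796 CPM at 0 h (SD, n = 3 each), well below the Cxcl16 level at 5 days.

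Cxcl14, a ligand of many epithelia whose receptor is not settled, stood at 181, 177 and 78.7 CPM in the 5 day libraries. It stood at 66.3, 75.8 and 72 CPM in the 0 h libraries. Replicate 3 at 5 days barely cleared the highest 0 h library, while replicates 1 and 2 were well above. Cxcl14 rose by 1.02 on the log2 scale (SE 0.24, adjusted p = 0.00398 by edgeR's quasi-likelihood test), and by 1.31 without replicate 3 at 5 days. That library also had the lowest lens epithelium marker sum of its group, 16285 CPM against 26413 and 30663 CPM in replicates 1 and 2. It also had the highest fibroblast and pericyte marker sum, 2097 CPM against 1321 and 1240 CPM in replicates 1 and 2. Most of that sum was the collagen gene Col1a1, at 1349 CPM against 708 and 773 CPM. Col3a1, Dcn, Lum and Pdgfrb were highest in replicate 3 as well. Pdgfra (131 against 233 and 212 CPM) and Abcc9 (0.219 against 1.43 and 2.64 CPM) were lowest in replicate 3. The surface epithelium keratins Krt14 (418 counts, against 2 and 2) and Krt5 (182 counts, against 1 and 2) were found at 5 days nearly only in this library, which was the highest 5 day library for 6 of the 10 ligands. Other markers of the cornea and surface epithelium list did not share this. Aldh3a1 was lowest in replicate 3, at 346 CPM against 467 and 638 CPM, and Krt12 had 11, 0 and 10 counts in replicates 1 to 3. The sum of that list, 412 CPM in replicate 3 against 469 and 639 CPM, was mostly Aldh3a1 and so adds little to it. Aldh3a1 also stood at 795, 876 and 1074 CPM in the 0 h libraries, where Krt5 and Krt14 had at most 2 counts. The part of these cell types in the level of Cxcl14 or of the other ligands was not tested.

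Cxcl12, or SDF-1, retains and recruits cells through CXCR4 and is scavenged by ACKR3. It stood at 3.02, 2.01 and 5.47 CPM in the 5 day libraries, against 1.08, 0.768 and 0.358 CPM in the 0 h libraries. The groups did not overlap, on 19, 16 and 50 counts at 5 days and 8, 7 and 3 counts at 0 h. Cxcl12 rose by 2.26 on the log2 scale (SE 0.56, adjusted p = 0.0055 by edgeR's quasi-likelihood test). Without replicate 3 at 5 days the log2 fold change of Cxcl12 was 1.75 and the adjusted p 0.0365 by that test.

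Levels of different genes were compared per kilobase of exon. At 5 days the order of mean levels was Cxcl14 (79.7 CPM per kilobase), Cx3cl1 (36.4), Ccl2 (26), Ccl6 (17.9), Cxcl16 (12.9), Ccl9 (3.04), Ccl7 (2.84), Cxcl5 (1.17), Cxcl12 (0.428) and Cxcl1 (0.355). Among neighbours in this order the libraries of Cxcl14 and Cx3cl1, of Cx3cl1 and Ccl2, and of Cxcl16 and Ccl9 did not overlap, while the other neighbouring pairs did. With the longest transcript as length, Cxcl14 (43.1 to 99 CPM per kilobase) and Cx3cl1 (38.2 to 45.8) overlapped as well. At 0 h the order began with Cxcl14 (39.1 CPM per kilobase), Cx3cl1 (16.1) and Ccl2 (4.05), 3 ligands whose libraries were separate from each other and from the rest. Then came Ccl6 (1.14), Ccl7 (0.497), Cxcl16 (0.419), Cxcl12 (0.0898) and Ccl9 (0.0653), and Cxcl1 and Cxcl5 had no counts. Between Ccl6 and Ccl7, Ccl7 and Cxcl16, and Cxcl12 and Ccl9 the 0 h libraries overlapped, and between Cxcl16 and Cxcl12 they did not. With the longest transcript as length Cxcl16 (lowest 0.15 CPM per kilobase) and Cxcl12 (highest 0.191) overlapped at 0 h as well.

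**Figure D2:**
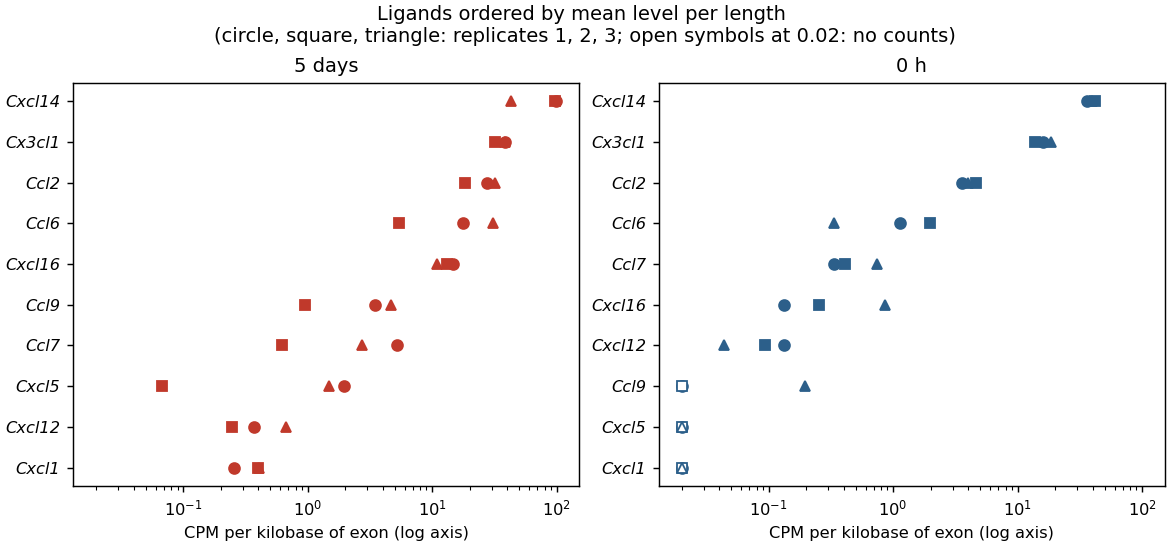
Level of each ligand in CPM per kilobase of exon (horizontal log axis) in each library, ordered by the group mean, at 5 days (left) and at 0 h (right). Cxcl14 and Cx3cl1 lead both orders, Cxcl1 is last at 5 days at 0.355, and open symbols at the left edge stand for libraries without counts.

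Cxcl14 and Cx3cl1 together made up 65.9, 76.7 and 49.5% of the summed per-kilobase level of the 10 ligands in the 5 day libraries, against 90.8, 88.3 and 90.4% in the 0 h libraries. The summed level itself was 181 ± 24 CPM per kilobase at 5 days and 61.4 ± 3.43 at 0 h (SD, n = 3 each). The share of Ccl2 was 13.2, 10.9 and 19.3% at 5 days and 6.17, 7.4 and 6.21% at 0 h. The share of Cxcl16 was 7.05, 7.74 and 6.63% at 5 days and 0.232, 0.406 and 1.35% at 0 h. In these shares too the 5 day libraries lay on one side of the 0 h libraries, and replicate 3 at 5 days stood farthest from 0 h for Ccl2 and for the Cxcl14 and Cx3cl1 pair.

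Monocyte-attracting ligands outweighed neutrophil-attracting ones in every library. The monocyte-attracting class (Ccl2, Ccl7, Ccl6, Ccl9 and Cx3cl1) summed to 92.1, 57.7 and 109 CPM per kilobase in the 5 day libraries, against 21, 20.7 and 23.8 in the 0 h libraries. The neutrophil-attracting class (Cxcl1 and Cxcl5) summed to 2.22, 0.469 and 1.88 CPM per kilobase at 5 days and had no counts at 0 h. As a share of the 10 ligands, the neutrophil-attracting class held 1.07, 0.278 and 1.14% at 5 days. Without Cx3cl1 the monocyte-attracting class was 49.8 ± 22.5 CPM per kilobase at 5 days and 5.75 ± 1.08 at 0 h (SD, n = 3 each).

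The CCR2 ligands (Ccl2 and Ccl7) stood 14.7, 40.6 and 18.5 times above the CXCR2 ligands (Cxcl1 and Cxcl5) per kilobase in the 5 day libraries. The highest of these ratios belongs to replicate 2, where Cxcl5 had 1 count. At 0 h the CCR2 ligands were at 4.55 ± 0.595 CPM per kilobase (SD, n = 3), at least 70.7 times the limit that 3 counts of the CXCR2 ligands over the group would give. The 0 h value is only a lower bound, for counting error only, and it lay above the ratio of each 5 day library. Whether the ratio differed between the groups was not tested. The CCR1 ligands (Ccl6 and Ccl9) summed to 20.9 ± 14.4 CPM per kilobase at 5 days and 1.2 ± 0.717 at 0 h (SD, n = 3 each). The ratios above cover Ccl2, Ccl7, Cxcl1 and Cxcl5 only. Further CXCR2 ligands outside the 10, Cxcl2, Cxcl3 and Ppbp, averaged 0.746, 0.679 and 1.63 CPM per kilobase at 5 days. Ccl12, a further CCR2 ligand, averaged 1.32. Cxcl1 and Cxcl5 together averaged 1.52, so with these genes counted in each 5 day ratio would be much lower. The shares of the neutrophil-attracting class given above leave out Cxcl2, Cxcl3 and Ppbp too.

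The 5 day libraries differed from each other much more for some ligands than for others. The highest library was 5.61 times the lowest for Ccl6, 4.93 times for Ccl9, 8.24 times for Ccl7 and 29.1 times for Cxcl5, all with replicate 2 lowest. It was 1.2 times the lowest for Cx3cl1, 1.34 times for Cxcl16 and 1.73 times for Ccl2. Summed pan-leukocyte markers (Ptprc, Laptm5 and Coro1a) varied 1.24 times. Summed monocyte and macrophage markers varied 1.44 times with replicate 2 lowest, at 1189, 825 and 928 CPM in replicates 1 to 3. Summed neutrophil markers varied 1.74 times with replicate 2 again lowest, at 43.3, 25.4 and 44.1 CPM. The largest part of that sum was Csf3r, which monocytes also express, at 18, 12.4 and 15.3 CPM. Some neutrophil markers with few counts varied more. S100a8 had 11, 2 and 16 counts, Mmp8 11, 2 and 19, Cd177 10, 1 and 19 and Prtn3 10, 4 and 30. Ltf, Ngp, Retnlg and Padi4 did not have their lowest CPM in replicate 2. The part of neutrophils or macrophages in the spread of Ccl6, Ccl9, Ccl7 and Cxcl5 was not tested.

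**Figure D3:**
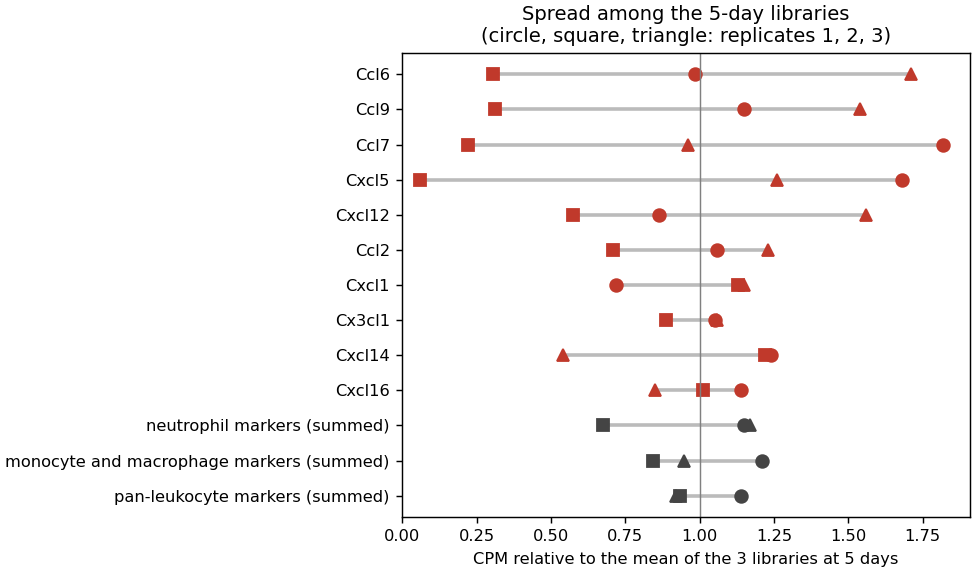
CPM of each ligand (red) and of summed leukocyte marker lists (grey) in the 3 libraries at 5 days, each divided by the mean of those libraries (horizontal linear axis). Cxcl5, Ccl7, Ccl6 and Ccl9 spread widest with replicate 2 (square) lowest, and Cx3cl1 and the pan-leukocyte sum spread least, at 1.2 and 1.24 times from lowest to highest.

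Among 28 other chemokine ligand genes 5 could be tested, and 3 of these were higher and 1 lower (median log2 fold change 2.96), against 25.1% higher and 22.5% lower among all tested genes. Ccl22, a CCR4 ligand of macrophages and dendritic cells, stood at 10.7, 8.67 and 3.07 CPM at 5 days and had no counts at 0 h, at least 58.3-fold higher. Ccl24, an eotaxin that acts on CCR3, stood at 11.6, 9.92 and 18.5 CPM at 5 days and 0.269, 0 and 0 CPM at 0 h, a ratio of 171 with a 95% exact interval of 47 to 1419 that covers counting error only. Pf4, the platelet factor that macrophages also make, rose by 2.96 on the log2 scale (SE 0.55), and by 3.65 without replicate 3 at 0 h. Both 0 h counts of Ccl24 came from replicate 1, and without that library Ccl24 was at least 80.1-fold higher against 3 counts over the remaining 0 h libraries. Ccl22, Ccl24 and Pf4 passed the filter only through the 5 day libraries, which tilts the count of higher genes and the median of this list upward.

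Ccl27a, a ligand of skin keratinocytes, fell by 0.80 (SE 0.28, adjusted p = 0.0353 by edgeR's quasi-likelihood test) to 5.22 ± 1.51 CPM at 5 days, against 9.02 ± 1.04 CPM at 0 h (SD, n = 3 each). That call was lost with total library size as the scale (log2 fold change -0.67). Leaving out replicate 1 at 0 h (-0.73), replicate 3 at 0 h (-0.79) or replicate 3 at 5 days (-0.58) also ended the Ccl27a call. Ccl25, a thymus and gut ligand, averaged 11.3 ± 1.3 CPM at 5 days and 11 ± 1.41 CPM at 0 h (SD, n = 3 each), with a log2 fold change of 0.04 (SE 0.20).

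The other CXCR2 ligands were below the filter, as Cxcl1 and Cxcl5 were. Cxcl2 had 4, 3 and 33 counts, Cxcl3 14, 5 and 39 counts and Ppbp 11, 3 and 29 counts in the 5 day libraries, and each of them had 0 counts at 0 h. Replicate 2 was again the lowest for each, and replicate 3 the highest. Ccl12, a further CCR2 ligand of mice, had 3, 7 and 7 counts at 5 days and 0, 2 and 3 counts at 0 h. The interferon-induced CXCR3 ligands Cxcl9 and Cxcl11 had no counts in any library, and Cxcl10 had 1, 6 and 8 counts at 5 days and 2, 2 and 0 at 0 h.

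Chemokine receptors mark the cells that can respond, and 7 of 18 could be tested. All 7 were higher at 5 days, where 25.1% of all tested genes were, with a median log2 fold change of 4.28 when receptors without 0 h counts are set at their lower bound. Only Cx3cr1 passed the filter on the 0 h libraries alone, so this count and this median too are tilted upward. Ccr2, the receptor of Ccl2 and Ccl7, stood at 19.6, 12.1 and 12.9 CPM at 5 days and had no counts at 0 h, at least 119.8-fold higher. Ccr1, the receptor of Ccl6 and Ccl9, stood at 15.3, 7.41 and 16.3 CPM at 5 days and 0.404, 0 and 0.238 CPM at 0 h. It rose by 5.90 on the log2 scale (SE 0.59), by 6.64 without replicate 1 at 0 h and by 5.28 without replicate 2 at 0 h. Cxcr2, the receptor of Cxcl1 and Cxcl5, stood at 3.18, 1.26 and 1.42 CPM at 5 days and had no counts at 0 h, at least 15.3-fold higher.

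Cx3cr1, the fractalkine receptor, rose by 2.43 on the log2 scale (SE 0.44), to 15.7 ± 7.94 CPM at 5 days, against 2.85 ± 1.8 CPM at 0 h (SD, n = 3 each). Without replicate 3 at 0 h it rose by 3.05. Cxcr4, the Cxcl12 receptor, rose by 4.28 (SE 0.60), and Ccr7 was at least 13.9-fold higher. Cxcr6, the receptor of Cxcl16, was below the filter with 3, 9 and 12 counts at 5 days and none at 0 h. The Cxcl12 scavenger Ackr3 rose by 0.81 (SE 0.29, adjusted p = 0.0397 by edgeR's quasi-likelihood test). The Ackr3 groups overlapped, at 17.2, 9.04 and 21.4 CPM at 5 days and 7.14, 9 and 11 CPM at 0 h. Its call was lost with limma-voom (0.74), without replicate 1 or 2 at 0 h (0.66 and 0.80) and without replicate 1 or 3 at 5 days (0.76 and 0.51).

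**Figure D4:**
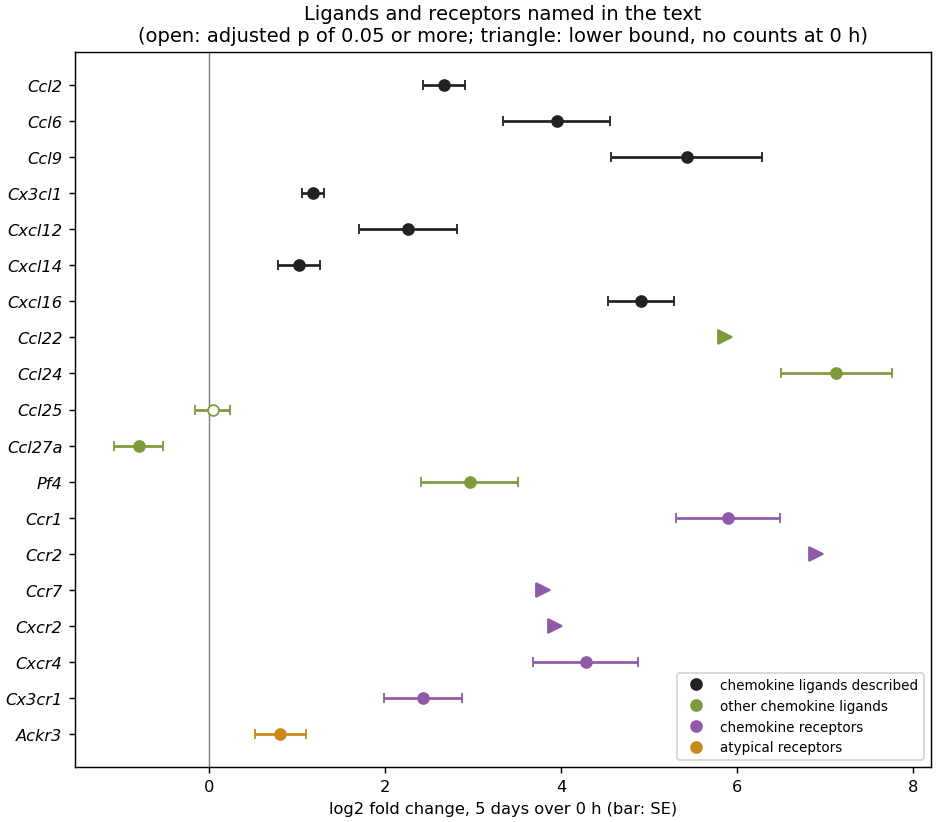
Log2 fold change of 5 days over 0 h (horizontal axis, bars are SE) for the 7 tested chemokine ligands (black), other tested ligands (green), 6 of the 7 tested receptors (purple) and the atypical receptor Ackr3 (orange). Triangles are lower bounds for genes without counts at 0 h, the open circle (Ccl25) was not called, and Ccl27a alone lies below 0 among the called genes.

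Of 23 listed genes that induce chemokines or carry or restrain that signal, 20 were tested. Of these 16 were higher and 1 lower (median log2 fold change 1.37), again against 25.1% and 22.5% of all tested genes. The filter was passed by 18 of the 20 on the 0 h libraries alone. Il1a and Il6 passed only through the 5 day libraries and could hardly have come out lower. The cytokine Il1b stood at 13.4, 9.92 and 20.1 CPM at 5 days and 1.48, 1.76 and 2.15 CPM at 0 h, a log2 fold change of 3.00 (SE 0.33). Tnf was below the filter, with 4, 2 and 12 counts at 5 days and none at 0 h, and Il17a and Ifng had no counts in any library. The NF-κB subunit genes Nfkb1, Nfkb2 and Relb rose by 1.29, 1.82 and 2.23, and Rela was not called at 0.31 (SE 0.12, adjusted p = 0.0536 by edgeR's quasi-likelihood test). The inhibitors Nfkbia, Nfkbie and Tnfaip3, counted among the 16, rose by 1.12 (SE 0.19), 1.45 (SE 0.16) and 0.72 (SE 0.16). The member that fell was the cytokine Il18, by 0.70 (SE 0.23).

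Markers of several cell types differed between the same groups. Of 23 tested monocyte and macrophage markers 21 were higher and 0 lower, where 25.1% and 22.5% of all tested genes were. Of the 23 only 8 passed the filter on the 0 h libraries alone. The list summed to 825 to 1189 CPM at 5 days and 105 to 140.2 CPM at 0 h. The most abundant at 5 days was the lysozyme gene Lyz2, at 242 ± 46.7 CPM at 5 days and 5.56 ± 3.98 CPM at 0 h (SD, n = 3 each). Of 24 listed markers Ly6c2 alone was at 0 in all libraries. Of 18 neutrophil markers 5 could be tested and were higher, but all 5 passed the filter only through the 5 day libraries and could hardly have come out lower. The list summed to 25.4 to 44.1 CPM at 5 days and 0.238 to 1.89 CPM at 0 h. The granule genes Mpo, Elane and Camp, the surface marker Ly6g and Mrgpra2b were at 0 in every library. The most abundant neutrophil marker, Csf3r (15.2 ± 2.78 CPM at 5 days and 0.2 ± 0.175 CPM at 0 h, SD, n = 3 each), is also expressed by monocytes. S100a9 had 22, 10 and 19 counts at 5 days and none at 0 h.

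Lymphocyte markers summed to 0.796 to 1.13 CPM at 5 days and 0.11 to 0.404 CPM at 0 h, and Cd3e, Cd8a and Ms4a1 were among those with no counts. Endothelial markers were higher for 4 of 6 tested and lower for 0, where 25.1% and 22.5% of all tested genes were. The 4 (Pecam1, Cdh5, Tek and Cldn5) passed the filter only through the 5 day libraries and could hardly have come out lower. Kdr and Vwf passed it on the 0 h libraries alone and were not called. The list summed to 30 to 54 CPM at 5 days and 7.95 to 14.8 CPM at 0 h. Fibroblast and pericyte markers were higher for 5 of 8 tested and lower for 3, against the same shares of all tested genes. Of the 5 higher ones only Col1a1 passed the filter on the 0 h libraries alone, which tilts that count upward. The 3 lower ones (Pdgfra, Pdgfrb and Abcc9) all did. This list summed to 1240 to 2097 CPM at 5 days and 555 to 594 CPM at 0 h. Lens fiber markers were lower for 9 of 9 tested, where 22.5% of all tested genes were. Of these, Birc7 and Dnase2b passed the filter only through the 0 h libraries. Lens fiber markers summed to 4157 to 13634 CPM at 5 days and 64955 to 74186 CPM at 0 h. The part of any of these cell types in the ligand levels was not tested.

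The genes with the pattern closest to 3 of the ligands were taken by the smallest root mean square difference of centred log2 CPM over the 6 libraries. For Ccl2 they were Cthrc1 (0.124), Aif1l (0.136) and Dpysl3 (0.15). For Cxcl12 they were Zfp36 (0.124), Muc2 (0.176) and Fos (0.191). For Cxcl1 they were Prune2 (0.09), Pdzrn3 (0.0987) and Nfkb2 (0.125), but with at most 7 counts per library the Cxcl1 pattern depends on the prior count of 2 added before taking logs. All 6 libraries share the 2 groups, so genes with a similar group difference come out close.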

How the data were processed

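Total RNA of pooled lens capsules was made into stranded libraries (SMARTer Pico kit, per the labels' protocols). The deposited files hold raw counts, 1 whole number for each Ensembl gene. The submitters' processing notes name HISAT2, HTSeq, edgeR and the build GRCm39. How strand and overlaps were handled, and the annotation and versions used, the sources used here do not give, which leaves overlapping and antisense genes uncertain. The HTSeq summary entries (32.26 to 42.55% of all entries) were left out.

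Symbols (91.2% of 56940 genes) and exon lengths came from GENCODE M21 (GRCm38), matched by Ensembl identifier. Promoters came from RefSeq (GRCm38.p6). Counts were filtered with edgeR's default (minimum count 10), scaled with TMM and tested with edgeR 4.0.16 (quasi-likelihood, R 4.3.3), adjusted by Benjamini-Hochberg over all 14676 tested genes, threshold 0.05. CPM are TMM-scaled. The tool was tested on simulated data. The p-values measure the spread between pools of 5 capsules, and exact tests of 3 against 3 libraries cannot go below p = 0.1, so none was used. DESeq2 1.42.0, limma-voom (limma 3.58.1), other scalings, filters, a replicate block and leaving out each library were tried. Figures used Python 3.11.15 and matplotlib 3.10.9.

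The rule for named genes took the 10 ligands, tested members of the ligand and receptor lists, the most abundant and most changed member of each marker list, and the 3 genes nearest to Ccl2, Cxcl1 and Cxcl12. Others, such as Zmynd15, Krt14, Krt5, the inducers, the sheddases and untested ligands and receptors, were named after their values were seen. Some genes of the lists are not reported here by name. Members and lists were chosen with earlier results of these data known. Ligands were put into monocyte- and neutrophil-attracting classes from textbook knowledge.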

Additional observations from a re-analysis of the deposited data

How the results depend on the processing

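The call of each of the 7 tested ligands kept its direction and passed the threshold under every alternative run (98 of 98 values), and 0 ligands were called lower under any, with 0 also by DESeq2 and limma-voom. The number called higher was 7 throughout, except for 10 with no low-count filter and 7 to 9 when single libraries were left out, since Ccl7 and Cxcl5 then enter the test. Leave-one-out counts ran from 6151 to 6890 for all genes called (6984 with every library), 4 to 6 for other ligands (4) and 6 to 8 for receptors (7), and the ratio of CCR2 to CXCR2 ligands at 5 days from 16.5 to 22.8 (18.9). With no low-count filter 8 other ligands were called. Summing all monocyte-attracting ligands gave a ratio of 56.6 over CXCR2 ligands, and taking the longest transcript as length put Cx3cl1 at 43.1 CPM per kilobase at 5 days. Ccl25, never called, ran from -0.05 to 0.14 when single libraries were left out, with -0.01 and -0.03 without replicate 2 or 3 at 0 h and -0.05 without replicate 2 at 5 days. The cause was not tested. Total library size as the scale moved the median of all genes up by 0.13 (log2), and each ligand's rise held relative to that shift. Replicate numbers were taken from the sample titles, and the library names number replicates 2 and 3 at 5 days differently. Deviations of same-numbered libraries correlated at 0.0385, -0.0897 and 0.0434, and those of differently numbered ones at -0.0949 to 0.0653. These values cannot show whether pools share mice. A replicate block left the 7 ligand calls in place and moved all calls to 6738. Depth limits Cxcl1, Cxcl5, Ccl7 and the other CXCR2 ligands, which lie near or under 1 CPM in some or all 5 day libraries.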
